A study of Mus musculus with 4 samples.

Results

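Pericytes and smooth muscle cells of the lung were taken from the single-cell data by their own transcripts, and 147 such cells were found among 19427 lung cells that passed the filters, in a series of 30943 cell barcodes. A lung barcode was a member if it had at least 500 UMIs (counted transcript molecules), at most 20% of them mitochondrial, and at least 3 UMIs in sum of Notch3, Cox4i2, Higd1b, Myh11 and Cnn1. It also had to hold no UMI of Ptprc, Cdh5, Epcam or Pdgfra, which mark leukocytes, endothelium, epithelium and fibroblasts. The members were thus chosen by the measured counts of these 9 genes, which are given below only as a description. Near the threshold, 2 TNF- and 4 TNF+ members had exactly 3 UMIs of the rule genes and 11 and 3 had 4 UMIs, while 16 TNF- and 12 TNF+ barcodes just outside it had 2 UMIs and passed every other condition.

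TNF+ mice carry a human TNF transgene (TNF-Tg line on the C57BL/6 background) and develop inflammatory arthritis together with pulmonary vascular disease. TNF- mice are their littermates without the transgene. All mice were female and 4 months old. The lungs of 3 to 5 mice per genotype were pooled, digested with Collagenase A, Elastase and Dispase II, sorted for live cells and captured as 1 library per genotype. Synovium of 5 to 10 mice per genotype was digested with type II collagenase and handled in the same way, so that genotype, tissue, digestion and library cannot be told apart from the differences between mice. With 1 library per group there is no replicate, and no difference below carries a p-value or a standard error. All intervals are 95% intervals of counting error: exact Poisson intervals for levels in CPM (a gene's UMIs per 1000000 UMIs, summed over the cells of a group), exact binomial (Clopper-Pearson) intervals for shares, and conditional binomial intervals for log2 ratios of CPM.

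Pericytes are mural cells that lie against capillaries within the basement membrane, where they steady the endothelium and take part in its signalling through PDGF, angiopoietin and Notch. Smooth muscle cells wrap the arteries, veins and airways and contract through actin, myosin and their regulators, under the control of endothelin, angiotensin, nitric oxide and muscarinic receptors. In pulmonary hypertension these are the cells whose tone and number set the resistance of the vessel wall. Airway smooth muscle and the myofibroblasts of the alveolar ducts share most contractile genes with vascular muscle and are known for Hhip, which binds and sequesters hedgehog ligands. Notch3 is a receptor of mural cells, Cox4i2 a variant subunit of cytochrome c oxidase, Higd1b a mitochondrial protein known from lung pericytes, Myh11 the smooth-muscle myosin heavy chain and Cnn1 the actin-binding protein calponin. On mouse build GRCm38, GENCODE vM21 places Notch3 at chr17:32120820-32166852, Cox4i2 at chr2:152754173-152765037, Higd1b at chr11:102835849-102838040, Myh11 at chr16:14194535-14291372 and Cnn1 at chr9:22099216-22109630.

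Contractile genes are classical targets of serum response factor, which binds the CArG box, a CC and a GG with a run of A or T bases between them, 10 bases in all and the same on both strands. Promoters from RefSeq (GRCm38.p6, 250 bases before to 50 bases after the start) were searched for it, and 535 of 32851 (1.63%) held one. Of the 5 rule genes with Acta2 and Tagln, 3 (Notch3, Cnn1 and Acta2) were matched to a promoter and none of these held the exact box. Boxes with a differing base or outside these bases were not searched for. Myh11, Tagln, Cox4i2 and Higd1b had no matched promoter. It was found in 1 of 14 matched contractile genes and in 1 of 13 matched pericyte genes (the lists are described below). Both windows are shown, 30 bases each on the plus strand with the CArG box in capitals, because Myl9 (a myosin light chain, box 161 bases before the start) and Trpc6 (a calcium-permeable channel, box 122 bases before the start) stood on opposite sides of the comparison of pericytes with smooth muscle, with log2 ratios of -3.46 and 4.64.
Myl9, chr2:156775293-156775322: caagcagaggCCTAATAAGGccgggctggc
Trpc6, chr9:8544010-8544039: cctttcgatcCCTTTAAAGGtggggatcgt
A match is a run of letters in this window and was not tested for binding.

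Far fewer members were found in the TNF+ lung. They numbered 127 of 8342 kept barcodes (1.52%, interval 1.27 to 1.81) in the TNF- library and 20 of 11085 (0.180%, 0.110 to 0.279) in the TNF+ library, a share 8.44-fold lower. After every cell was thinned to 500 UMIs, so that the rule was applied at 1 depth, 70 (0.839%) and 10 (0.0902%) met it, a share 9.30-fold lower. Of these, 57 and 9 had also been members before thinning. The others entered because thinning also takes away UMIs of the exclusion genes. Endothelium, gated on Cdh5, made up 24.3% of the TNF- and 1.83% of the TNF+ cells, and fibroblasts, gated on Pdgfra, 3.97% and 0.253%. All 3 stromal gates were thus a smaller share of the TNF+ library. Fewer such cells in the tissue, fewer released by the digestion and a larger number of other cells cannot be told apart here.

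The exclusions removed members unequally. Before them 222 TNF- and 47 TNF+ barcodes reached 3 UMIs of the rule genes. Ptprc removed 44 and 18 of these, Cdh5 50 and 1, Epcam 12 and 10, and Pdgfra 21 and 6. The removed barcodes had median depths of 15600 (TNF-) and 33867 UMIs (TNF+), so the rule kept the shallower cells.

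Depth was uneven. The whole lung libraries held 96120328 (TNF-) and 155989523 (TNF+) UMIs. The median depth of a member was 8471 UMIs (552 to 29914) for TNF- and 9697.5 UMIs (503 to 52254) for TNF+, and cells under 2000 UMIs made up 19.7% and 45.0% of them. In all, 1143806 UMIs stood behind the TNF- values and 265838 behind the TNF+ values, of which 3 cells over 30000 UMIs gave 135255 (50.9%). The lung libraries shared 21 barcodes, none of them a member. Doublets were not removed beyond the exclusions, and 13 TNF- and 5 TNF+ members had more than 5000 detected genes.

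Free RNA was present in every group. Lyz2, the lysozyme of myeloid cells, was found in 66 of 127 TNF- and in 20 of 20 TNF+ members, at a mean of 0.858 and 7.45 UMIs per cell. T cells of the same libraries, gated on Cd3 genes and expected to lack it, held a mean of 2.40 and 38.9 Lyz2 UMIs and a median of 1 and 7. The T-cell gate had no condition on myeloid genes, so mixtures with myeloid cells were not removed from it. This also holds where T cells are set beside members below. Sftpc, a surfactant gene of alveolar type II cells, was found in 116 of 127 and 20 of 20 members, with a median of 2 and 4 UMIs. The medians in T cells were 3 and 4. UMIs of both genes in members are read here as background. The rule genes themselves had 0 UMIs in 847 TNF- and 1362 TNF+ T cells, whose gate required this. Acta2 and Tagln, which no gate used, had 4.75 and 2.87 CPM in TNF- T cells, far under their levels in members.

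The labels pericyte and smooth muscle were checked by splitting the members. Members with more UMIs of Cox4i2 and Higd1b than of Myh11 and Cnn1 are called the pericyte side and those with fewer the smooth-muscle side. In the TNF- lung 40 members (31.5%, 23.5 to 40.3) lay on the pericyte side, 85 (66.9%, 58.0 to 75.0) on the smooth-muscle side and 2 were tied. In the TNF+ lung the numbers were 6 (11.9% to 54.3%), 13 (65.0%, 40.8 to 84.6) and 1. The split was nearly the same in both genotypes, with an interval on the TNF+ share too wide to exclude a large difference. Only 8 TNF- and 1 TNF+ members lay within 1 UMI of the cut.

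Genes outside the rule followed the split. A list of 18 pericyte genes made up a median of 2.87% of the UMIs of a TNF- pericyte-side cell (0.135% to 5.09%), against 0.295% (0 to 1.16%) for a list of 18 contractile genes. The pericyte share was above the contractile share in 37 of 40 such cells. On the smooth-muscle side another kind of cell stood out by Hhip, and cells with at least 3 Hhip UMIs, a limit chosen after the values were seen, were set apart as Hhip-high. They were 27 of the 85 TNF- smooth-muscle-side cells (31.8%, 22.1 to 42.8). The contractile share was above the pericyte share in all 27 and in 54 of the 58 Hhip-low cells. The gap at the limit was narrow. Hhip-high cells held 3 to 144 Hhip UMIs, and the Hhip-low cells held none apart from 2 cells with 1 UMI each. The 4 Hhip-high cells nearest the limit held 3 to 10 UMIs.

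**Figure D1:**
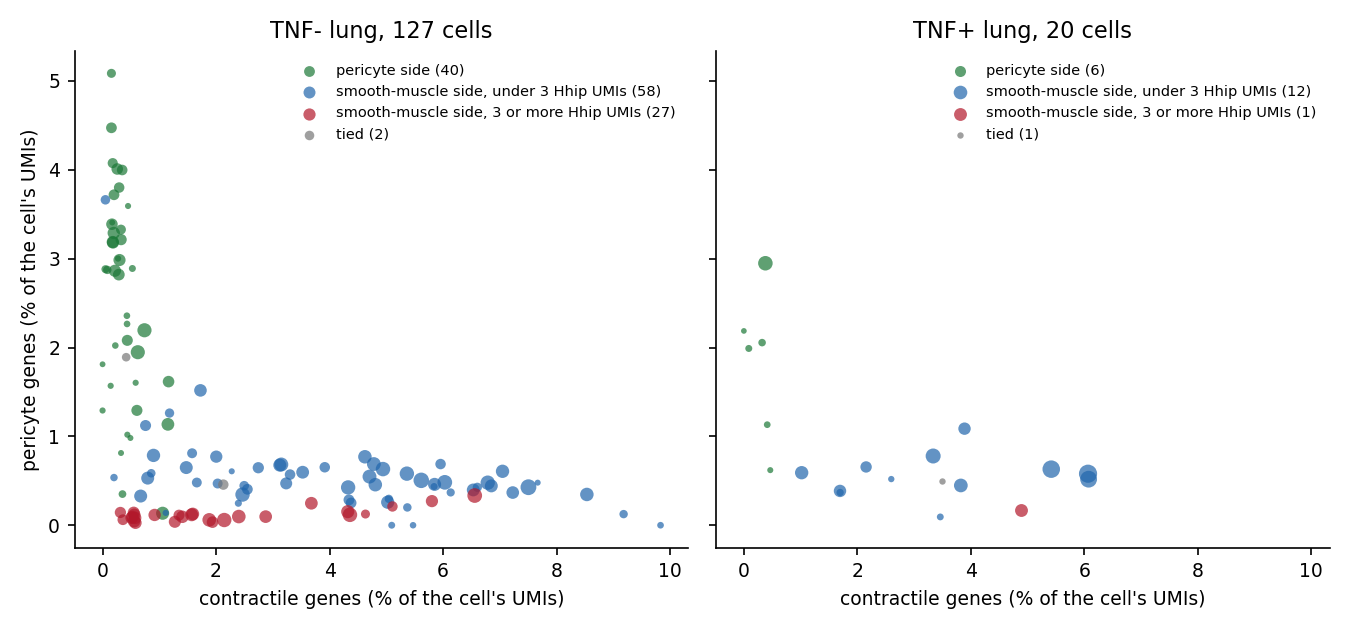
Each point is 1 member, with the share of its UMIs from the contractile genes (x axis, %) and from the pericyte genes (y axis, %), its area growing with its UMIs and its colour giving the kind of cell. In the TNF- lung (left, 127 cells) the pericyte side reached 5.09% on the y axis and stayed under 1.2% on the x axis, Hhip-low smooth muscle reached 9.83% on the x axis, and the TNF+ lung (right) held 20 cells of which 1 was Hhip-high.

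The rule genes described the 3 kinds in the TNF- lung as follows. Notch3 was at 1298 CPM (1154 to 1454) in the pericyte side, 636 (573 to 704) in Hhip-low and 0 (0 to 11.4) in Hhip-high cells. Cox4i2 was at 2902, 127 and 18.6 CPM, and Higd1b at 1293, 17.1 and 0 CPM. In the other direction, Myh11 was at 371, 4106 and 1623 CPM. Cnn1 was at 0, 1305 and 610 CPM. Myh11 was thus not absent from pericytes, in which 23 of 40 cells held a UMI of it, and the line between the kinds was drawn by its ratio to Cox4i2 rather than by its presence.

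Pericytes of the TNF- lung were set against all 85 smooth-muscle-side cells, over 7812 genes with at least 20 UMIs. Of all these genes 12.6% were at least 2-fold higher and 15.9% at least 2-fold lower in pericytes. Among the pericyte genes 12 of 17 measured were higher and 3 lower, with a median log2 ratio of 2.31 where the median over all genes was 0.02. Among the contractile genes 0 of 16 were higher and 13 lower, with a median of -3.13. Because the same cells' counts defined the sides, these counts describe the split and are no test of it.

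Several receptors and channels of the pericyte list fell in level from pericytes through Hhip-low to Hhip-high cells. Pdgfrb, the PDGF receptor that recruits pericytes, was at 1499 CPM in pericytes and 313 and 89.8 CPM in Hhip-low and Hhip-high cells. Trpc6 was at 2613, 163 and 0 CPM and was found in 27 of 40 pericytes. Its Hhip-low value was carried by 3 cells with at least 10 UMIs each, which held 90 of the 95 UMIs and were also high in Ndufa4l2 (821 CPM). The other 55 Hhip-low cells held Trpc6 at 8.92 CPM (2.90 to 20.8), so no level between those of the other kinds was measured in them. Without these 3 cells Pdgfrb, Kcnk3 and Ndufa4l2 were at 293, 369 and 114 CPM in Hhip-low cells. Kcnk3, the potassium channel TASK-1 whose human gene is mutated in some heritable pulmonary arterial hypertension (GRCm38 chr5:30588170-30625271), was at 704 (599 to 821), 379 (330 to 432) and 111 (78.1 to 154) CPM, in descending order without overlap of the intervals. It was found in 29 of 40 pericytes and in 45 of 58 Hhip-low cells, so it belonged to both. Ndufa4l2, a mitochondrial subunit induced under low oxygen, was at 1385, 142 and 0 CPM.

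Of 21 measured vasoactive signalling genes 10 were higher and 6 lower in pericytes. Gucy1a1 and Gucy1b1, the subunits of the guanylate cyclase that responds to nitric oxide, were 2.87 (2.69 to 3.06) and 3.28 (3.05 to 3.51) higher on the log2 scale. Agtr1a, the angiotensin II receptor, had 56 UMIs in 19 of 40 pericytes and none in the smooth-muscle side, a log2 ratio of at least 6.21. Ednra, the endothelin A receptor, was higher by 1.40 (1.10 to 1.70). Smooth muscle was higher in the thromboxane receptor Tbxa2r, at 72.8 against 13.1 CPM, and in the potassium channel Kcna5, with 37 UMIs against 0. The receptors for nitric oxide, angiotensin II and endothelin A were thus higher on the pericyte side. Those for thromboxane and for alpha-1A adrenergic signals (Adra1a, 26 UMIs against 0) were higher on the smooth-muscle side. For Ednra this was a difference in level, since it was found in Hhip-low smooth muscle as well.

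The genes with the highest ratios in pericytes had varied roles. Spp1, which encodes osteopontin, had the highest log2 ratio at 9.22 (6.72 to 14.54), but its 151 UMIs came from 14 cells and 50.3% of them from 1 cell. Hsd11b1, the enzyme that regenerates active glucocorticoid, was at 808 against 2.21 CPM and was found in 29 of 40 pericytes, although T cells of the same library also held it at 128 CPM. Vtn, encoding vitronectin, was at 476 against 3.31 CPM. Gap43, a growth-associated protein of axons, had 105 UMIs in 27 pericytes and none in smooth muscle, a log2 ratio of at least 7.12. Fam162b, Clstn2, Rgcc and the adenylyl cyclase Adcy8 completed the 8 highest, with log2 ratios of 6.64 to 8.40.

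Smooth-muscle-side cells were highest in contractile and secreted genes. Acta2 was at 498 CPM in pericytes, 14465 in Hhip-low and 5603 in Hhip-high cells, and it was found in 8 of 40 pericytes. Tagln, the actin-binding transgelin, was at 695, 9088 and 6405 CPM. Actc1, the cardiac alpha-actin, had no UMI in pericytes and 1697 in the smooth-muscle side, a log2 ratio of at most -7.16. The 8 lowest genes in pericytes also held Olfr1033 (an olfactory receptor gene, 4.37 against 708 CPM), Ccn3, Itih4, Clu, Pdlim3, F3 and Lgr6, each with 1 UMI in pericytes. F3 encodes tissue factor and Clu the chaperone clusterin.

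Matrix genes were divided between the kinds. Of 29 measured, 6 were higher in pericytes (Col4a1, Col4a2, Lamb1, Nid1, Nid2 and Sparc) and 8 were lower (Lama5, Col1a1, Col6a3, Col18a1, Eln, Fbln5, Fn1 and Mgp). The first group is made up of basement membrane chains, nidogens and the collagen-binding Sparc, and Col4a1 was at 1595 against 387 CPM. The other group includes elastin, at 393 against 3209 CPM in Hhip-low cells (Eln), for which 71.1% of the pericyte UMIs came from 1 cell. Of 8 measured Notch pathway genes 4 were higher in pericytes (Notch1, Hes1, Heyl and Nrarp) and Rbpj was lower.

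**Figure D2:**
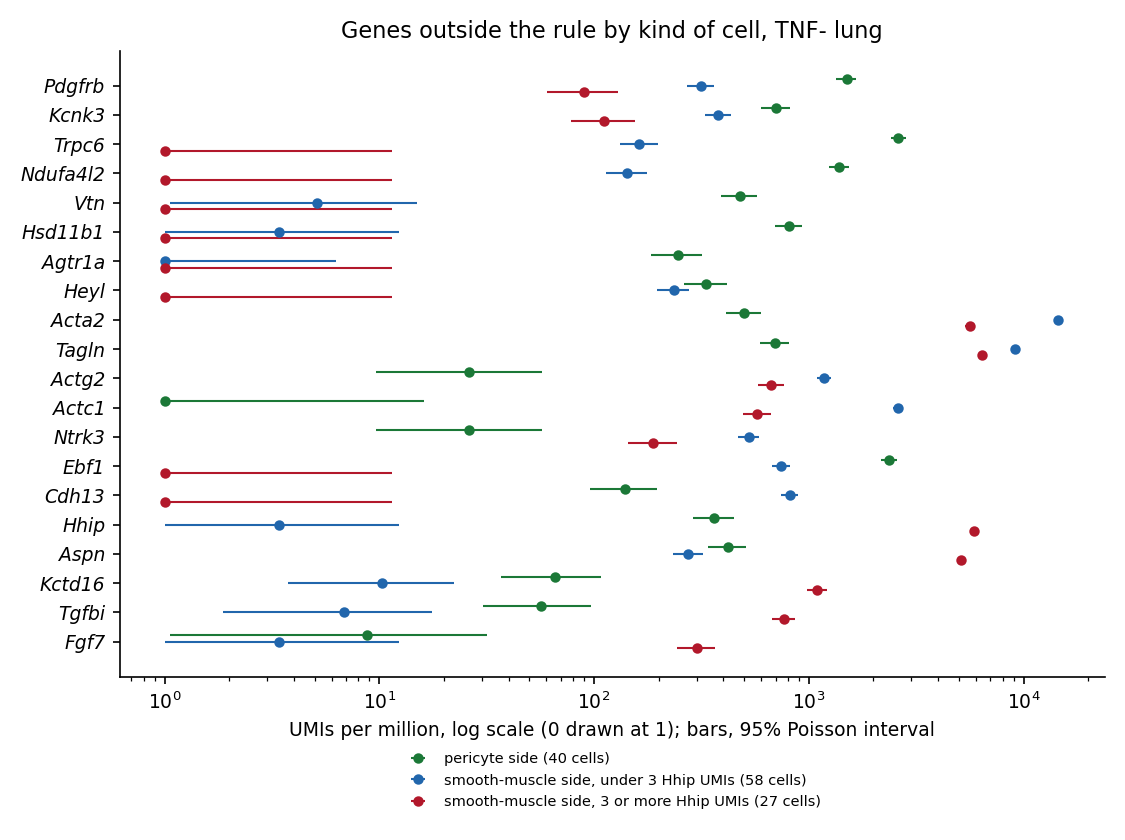
Levels of 20 genes outside the rule in the 3 kinds of TNF- lung cell (x axis, CPM on a log scale with 0 drawn at 1; bars, 95% Poisson intervals). Pericyte genes such as Pdgfrb (1499, 313 and 89.8 CPM) are highest in pericytes, the Hhip-low value of Trpc6 (163 CPM) comes almost wholly from 3 cells, Acta2 is highest in Hhip-low cells at 14465 CPM, and the last genes, among them Hhip and Aspn, are highest in Hhip-high cells.

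Hhip-high and Hhip-low cells of the smooth-muscle side differed in most lists. Levels of the Hhip-high cells are pooled over all 27, of which 10 had a contractile share under 1% and are described below. Over 6845 genes in the TNF- lung, 11.4% were at least 2-fold higher and 10.0% at least 2-fold lower in Hhip-high cells, with a median over all genes of 0.08. Of 7 measured genes known from airway smooth muscle and myofibroblasts 6 were higher, among them Hhip itself, and 1 was lower (Actc1). Their summed level, Hhip included, was 13385 against 3099 CPM. All 5 measured genes of the vascular smooth muscle list were lower, 14 of 16 pericyte genes were lower, and 9 of 16 contractile genes were lower with none higher. Hhip, at chr8:79965851-80058006, defined the groups, and its 5897 against 3.43 CPM is a description.

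No Hhip-high cell held a UMI of Notch3, while 47 of 58 Hhip-low cells did. Notch3 is a rule gene through which a cell could become a member, so these counts only describe the members. The Hhip-high cells were the deeper ones, with a median of 11228 UMIs against 8853.5. Other Notch genes were low as well. Heyl and Hey2, transcription factors that Notch induces in mural cells, had no UMI in Hhip-high cells against 137 and 57 in Hhip-low cells, log2 ratios of at most -4.66 and -3.39. Jag1, a Notch ligand, was at 6.19 against 66.8 CPM. Of the 8 Notch genes measured 5 were lower and none was higher.

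**Figure D3:**
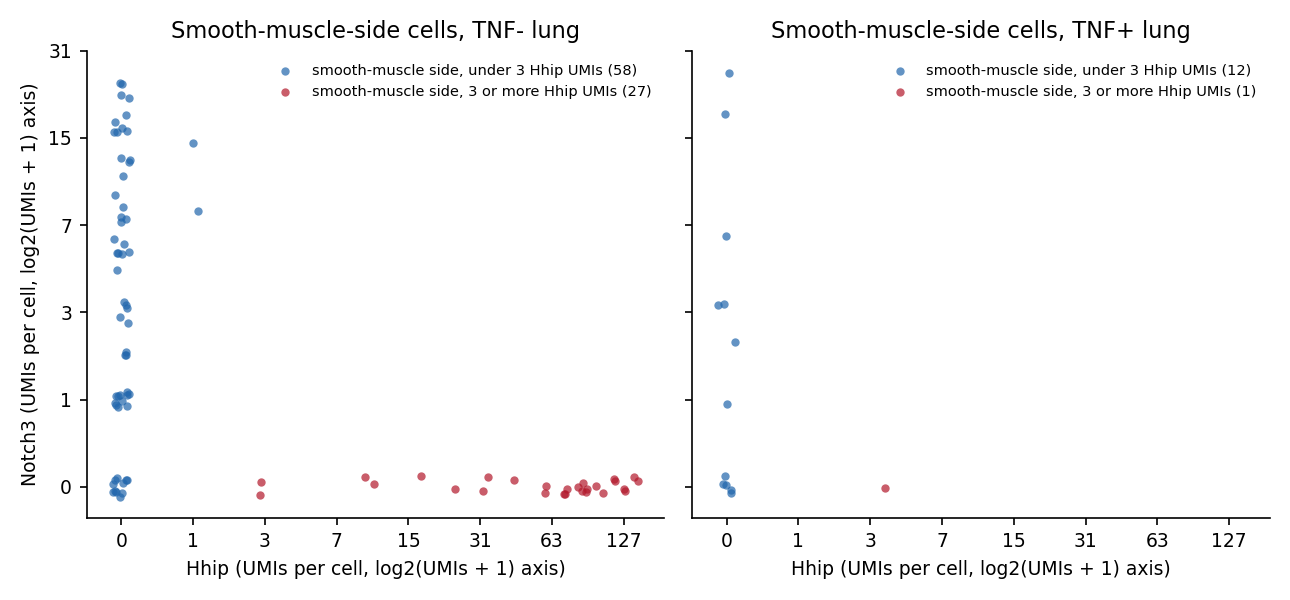
Hhip (x axis) and Notch3 (y axis) UMIs of each smooth-muscle-side cell, on log2(UMIs + 1) axes with a small random offset to part overlapping points, in the TNF- lung (left) and the TNF+ lung (right). The 27 Hhip-high cells of the TNF- lung lie along the x axis with no Notch3 UMI, and 1 of 13 TNF+ cells is Hhip-high, with 4 Hhip UMIs. Notch3 is a rule gene and is shown as a description.

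The Hhip-high cells were led by signalling and matrix genes. Aspn, encoding the matrix proteoglycan asporin, was at 5126 against 274 CPM and was found in 27 of 27 cells. Lpar1, a receptor for lysophosphatidic acid, was at 350 against 1.71 CPM, a log2 ratio of 7.67 (5.17 to 12.99). Tgfbi, an adhesion protein named for its induction by TGF-beta, was at 765 against 6.85 CPM in 27 of 27 cells. Chrm2, the muscarinic M2 receptor of airway muscle, was at 452 against 49.7 CPM and was found in 16 of 27 cells. Robo2, Egfem1, P4ha3, Slit2 and Zfp385b had log2 ratios of 6.74 to 7.48.

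Within the BMP and TGF-beta list 9 of 28 genes were higher in Hhip-high cells and 4 lower. Bmp5, a BMP ligand, was at 818 against 68.5 CPM, and Tgfbr3, the co-receptor betaglycan, at 1056 against 182 CPM. A ligand gene and a co-receptor gene of the list were thus both higher in Hhip-high cells. Acvrl1, Id4, Smad2 and Tgfbr2 were lower.

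What the Hhip-high cells lacked was as clear. Ebf1, a transcription factor of mural and stromal cells, had no UMI in them and 434 in the Hhip-low cells, a log2 ratio of at most -6.32. Cdh13, the T-cadherin of vascular cells, had 0 against 476 UMIs, a ratio of at most -6.46. Cxcl12, the ligand of Cxcr4, was at 3.10 against 238 CPM. Prss23, Tinagl1, Ccn3, Gpc6 and Timp4 were the other lowest genes, with log2 ratios of -7.53 to -6.32. Ntrk3, the neurotrophin-3 receptor and a marker of vascular smooth muscle, was found in 12 of 27 Hhip-high and 43 of 58 Hhip-low cells.

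The Hhip-high cells were not uniform. Divided by their contractile share at limits chosen after the values were seen, 10 cells under 1% held 36 to 142 Hhip UMIs (median 87) and only 3 to 11 of Myh11. None of these had Actc1, all 10 had Bmp5 (median 19 UMIs) and 9 had Lum, which encodes the fibroblast proteoglycan lumican. Their place on the smooth-muscle side thus rested on few UMIs of the rule genes. The 4 cells at 4.5% or more held 3 to 10 Hhip UMIs with 10 to 41 of Chrm2 and 7 to 79 of Actc1, and none had Lum. The remaining 13 cells lay between. Hhip was thus lowest in the 4 most contractile cells. Lum alone was most often found at the low-contractile end: Dcn was found in 4 of the 10 cells and in 5 of the 13 in between, and Ogn, another matrix proteoglycan, had medians of 2, 26 and 42.5 UMIs from the low to the high end. Over all 27 cells, 5 of 7 measured fibroblast markers (Dcn, Lum, Mfap5, Dpt and Lsp1) were higher than in Hhip-low cells, and Tcf21 was lower.

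The exclusion of Pdgfra bears on this kind of cell. Of all kept barcodes in the TNF- lung 155 had at least 3 Hhip UMIs, of which 62 also had a Pdgfra UMI and 28 were members. The TNF+ lung had 22 such barcodes, 17 of them with Pdgfra and 1 a member. The Hhip-high members are therefore the part of the Hhip cells that lacked Pdgfra and reached 3 UMIs of the rule genes. Besides them, 1 TNF- pericyte-side cell held 83 Hhip UMIs. It had 3 UMIs of Cox4i2 against 2 of Myh11, and its pericyte share was 0.135%. This cell was kept in all values of the pericyte side, to which it gave 17 Acta2 and 13 Kcnk3 UMIs.

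In the TNF+ lung 1 of 13 smooth-muscle-side cells was Hhip-high (7.69%, 0.195 to 36.0), against 31.8% (22.1 to 42.8) in the TNF- lung. The intervals of these shares overlapped. Without the Pdgfra exclusion, an alternative chosen after the values were seen, the numbers were 2 of 15 (13.3%, 1.66 to 40.5) and 31 of 93 (33.3%, 23.9 to 43.9). Hhip had 4 UMIs over all 20 TNF+ members and 1989 UMIs over the 127 TNF- members, a log2 ratio of -6.85 (-8.73 to -5.49). Values over all members are therefore given below beside those of the Hhip-low smooth muscle alone, 12 TNF+ against 58 TNF- cells. The 3 TNF+ cells over 30000 UMIs are all Hhip-low and held 59.9% of the UMIs of these 12 cells, so values without them (9 against 58 cells) are given where they differ. No TNF- member was over this limit (at most 29914 UMIs), so only TNF+ cells were left out.

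Over all members 8549 genes were compared between the genotypes, of which 4.55% were at least 2-fold higher and 14.5% at least 2-fold lower in TNF+, with a median over all genes of -0.11. In the Hhip-low smooth muscle alone, 6229 genes were compared, of which 4.69% were higher and 10.3% lower, with a median of -0.04. Without the 3 largest cells these shares were 8.34% and 13.6% of 5586 genes, with a median of -0.05. The pericyte side was too small for such a comparison: 21367 of the 26200 UMIs of the 6 TNF+ cells (81.6%) came from 1 cell. Its genes are given as values.

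The direction of the contractile genes between the genotypes rested on 3 TNF+ cells. Their summed level was 42056 CPM in TNF+ and 30392 in TNF- over all members, a log2 ratio of 0.47 (0.44 to 0.50), but 46148 and 44504 CPM in Hhip-low cells, a ratio of 0.05 (0.02 to 0.09). The 3 largest TNF+ cells held 7915 of the 10415 contractile UMIs of the 12 Hhip-low cells (76.0%). The other 9 cells were at 27644 CPM, a ratio of -0.69 (-0.75 to -0.63), and without the 3 the ratio over all members was -0.28. Both of these ratios set TNF+ cells without the deepest against TNF- cells of all depths. The median share of contractile UMIs per Hhip-low cell was 3.40% in TNF+ and 4.36% in TNF-. Of 16 measured 1 was higher and none lower over all members, and none was higher and 1 lower in Hhip-low cells. Acta2, at chr19:34241090-34255590, was at 16217 CPM (15696 to 16751) in TNF+ and 14465 (14158 to 14777) in TNF- Hhip-low cells, but 2952 of its 3660 TNF+ UMIs came from the same 3 cells and the other 9 were at 7829 CPM (7263 to 8427). Cells with many and with few UMIs thus differed in these genes within the TNF+ library. Whether they also did so within the TNF- library was not tested.

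Genes of airway smooth muscle and myofibroblasts were lower in TNF+ over all members, 6 of 7 measured, at 1418 against 5545 CPM. In Hhip-low cells the list was at 1179 against 3099 CPM, a log2 ratio of -1.39 where that over all members was -1.97. Its sum was thus lower also with the Hhip-high cells set aside. The median over its 5 measured genes was -0.13 (0.60 without the 3 largest TNF+ cells). The 1 lower gene of 5 measured in all Hhip-low cells was Actc1, at 642 (542 to 756) against 2588 (2460 to 2722) CPM. Of its TNF+ UMIs 84.1% lay in 1 of the 6 cells that held it. Aspn was at 288 and 274 CPM there, so it did not differ beyond its counting interval. The Hhip-low difference thus lay mostly in Actc1, the 1 gene of this list that was lower in Hhip-high than in Hhip-low TNF- cells. Kctd16 and Dpt, with 373 and 220 UMIs in the TNF- and none in the TNF+ members, were among the 10 lowest genes by genotype, and Kctd16 was at 1090.2 CPM in Hhip-high against 10.3 CPM in Hhip-low TNF- cells.

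Pericyte genes were mixed, with 1 of 17 measured higher and 4 lower in TNF+ over all members. On the pericyte side Pdgfrb had 2023 CPM (1515 to 2646) for TNF+ and 1499 (1344 to 1666) for TNF-, and it was found in 6 of 6 and 31 of 40 cells. Trpc6 was at 1679 and 2613 CPM, Cox4i2 at 3015 and 2902, Higd1b at 1908 and 1293 and Ndufa4l2 at 1183 and 1385. Cox4i2 and Higd1b chose the members and the side, so their levels are a description. The TNF+ levels rested mostly on 1 cell of 21367 UMIs. It held 45 UMIs of Pdgfrb, 41 of Trpc6, 64 of Cox4i2 and 42 of Higd1b. No other TNF+ pericyte-side cell held more than 3, 2, 7 and 4 of these. Kcnk3 was at 839.7 CPM in the TNF+ pericyte side, but all 22 UMIs came from the same cell. In Hhip-low cells Kcnk3 was at 155 (108 to 216) against 379 (330 to 432) CPM and was found in 5 of 12 and 45 of 58 cells. Postn, the matrix protein periostin (chr3:54361109-54391037), was at 2251 (2059 to 2455) in TNF+ and 442 (390 to 499) CPM in TNF- Hhip-low cells, found in 10 of 12 and 41 of 58, with 26.4% of the TNF+ UMIs in the highest cell. Without the 3 largest cells Kcnk3 was at 188 (110 to 301), in 3 of 9 cells, and Postn at 2112 CPM (1823 to 2434).

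Of 22 measured vasoactive genes 2 were higher and 8 lower in TNF+ over all members, and of 18 in Hhip-low cells 2 were higher and 8 lower. Ednra was at 88.6 against 264 CPM in Hhip-low cells, a log2 ratio of -1.57 (-2.32 to -0.90). Rock1, the kinase that sustains contraction downstream of RhoA, was at 1418 against 649 CPM, a ratio of 1.13 (0.91 to 1.35). Ednra was found in 8 of 12 and 35 of 58 of these cells and Rock1 in 9 of 12 and 48 of 58. Without the 3 largest cells neither passed the fold, with Ednra at 166 CPM, a ratio of -0.67 (-1.54 to 0.10), and Rock1 at 1183 CPM, a ratio of 0.87 (0.54 to 1.18).

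Matrix genes were 3 of 28 higher and 1 lower in the TNF+ Hhip-low cells. Bgn, the proteoglycan biglycan, was at 2304 against 982 CPM, a log2 ratio of 1.23 (1.06 to 1.40). Hspg2, the basement membrane proteoglycan perlecan, was at 479 against 219 CPM. Fn1, fibronectin, was at 337 against 163 CPM, with 80.3% of the TNF+ UMIs in 1 cell. None of the 3 passed the fold without the 3 largest cells, where Bgn was at 1625 CPM, Hspg2 at 354 and Fn1 at 122. Eln was at 2167 and 3209 CPM and did not pass the fold. Of 8 Notch genes none passed it over all members, and of 8 in Hhip-low cells none was higher and 2 were lower (2 higher and 1 lower without the 3 cells). Of 30 BMP and TGF-beta genes 1 was higher and 8 were lower over all members.

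Interferon and antigen presentation genes were higher in sum in the TNF+ members. Of 16 measured 6 were higher and none lower over all members, with a summed level of 2765 against 1276 CPM. In Hhip-low cells 4 of 11 were higher (Isg15, Bst2, B2m and H2-K1) and none lower, at 2393 against 1160 CPM, a log2 ratio of 1.04 (0.88 to 1.21). Without the 3 largest cells 8 of 11 were higher and the list was at 4058 CPM, a ratio of 1.81 (1.62 to 1.99). B2m, the light chain of MHC class I, was at 793 (681 to 918) against 315 (271 to 364) CPM in Hhip-low cells and was found in 8 of 12 and 47 of 58. H2-K1 was at 421 against 154 CPM, although class I genes resemble each other and their reads can be split. T cells, which express B2m themselves, were at 1843 and 1462 CPM. Myeloid markers were higher in the same members, 2 of 4 measured and at 1004 against 226 CPM in sum, of which Lyz2 gave 560.5 and 95.3 CPM. Myeloid markers of the 9 smaller TNF+ Hhip-low cells were at 1227 against 202 CPM. T cells express interferon and class I genes themselves and cannot serve as a measure of free RNA for this list, and the part of free RNA in it was not tested.

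Genes of the TNF and NF-kB response were higher in sum over all TNF+ members, while the interval within Hhip-low cells included 0. Over all members 5 of 16 measured were higher and 1 lower in TNF+, at 1606 against 1108 CPM. In Hhip-low cells 2 of 15 were higher and 3 lower, at 1405 against 1358 CPM, a log2 ratio of 0.05 (-0.14 to 0.24). Among the 9 smaller cells 4 of 13 were higher and 1 lower, at 1968 CPM, a ratio of 0.53 (0.29 to 0.77). Relb and Nfkb2, subunits of the non-canonical NF-kB pathway, were the 2 that were higher in all 12 cells, at 93.0 against 34.3 and 57.6 against 15.4 CPM, on 21 and 13 TNF+ UMIs. Ccl2, the chemokine that attracts monocytes (chr11:82035571-82037453), was carried by pericytes: all 19 UMIs of the TNF+ members lay in 3 of the 6 pericyte-side cells, at 725 CPM (437 to 1132). The 40 TNF- pericyte-side cells held 1 Ccl2 UMI and all TNF- members 4. T cells of the TNF+ library held it at 3.94 CPM.

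C3, the central complement component (chr17:57203970-57228136), was at 440.1 (364 to 527) in TNF+ and 25.4 (17.0 to 36.4) CPM in TNF- members, a log2 ratio of 4.12 (3.52 to 4.76). It was found in 10 of 20 and 6 of 127 cells. The TNF+ value leaned on 1 cell with 72 of the 117 UMIs (61.5%), and T cells of the TNF+ library held C3 at 95.6 CPM in 29.0% of cells, against 5.63 CPM in 3.90% of the TNF- T cells. C3 in the TNF+ members was thus above the level in T cells of the same library, but mostly through that cell. Of 9 measured complement genes 1 was higher (C3) and 1 lower (C4b, at 22.6 against 97.0 CPM).

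Sost, the Wnt inhibitor sclerostin known from bone (chr11:101962458-101967015), was found only in Hhip-low smooth muscle in both genotypes. It was at 665 (563 to 780) CPM in 5 of 12 TNF+ cells and at 73.7 (53.3 to 99.2) CPM in 12 of 58 TNF- cells, with 48.7% of the TNF+ UMIs in 1 cell. In the 9 smaller TNF+ cells it was at 111 CPM (53.0 to 203) in 3 of 9 cells, an interval that overlapped that of TNF-. Neither the pericyte side nor the Hhip-high cells of either library held a UMI of it. T cells held 1 and 2 UMIs in all. Susd5, another gene of the vascular list, was at 217 against 41.1 CPM in Hhip-low cells and at 232 CPM without the 3 cells.

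Besides these, the 10 highest genes by genotype among 2316 expressed above T cells were Ndst3, Itgbl1, Fam81a, Kif26b, Gpr176, Col19a1 and Efna5, with log2 ratios of at least 3.50 and at most 69 TNF+ UMIs each. In 6 of these 7 at least 47.4% of the TNF+ UMIs came from 1 cell. The lowest were Gria1, Spp1, Cacna2d3, Grin2a, Pde7b, Adamts17 and Lhfpl2 beside Hhip, Kctd16 and Dpt. Without the condition on T cells, none of the 10 highest and 1 of the 10 lowest genes was on the marker lists of other cell types. The 10 highest then included Igha, an immunoglobulin heavy chain of plasma cells that is on no list, with 88 UMIs in 18 of 20 TNF+ and 24 UMIs in 21 of 127 TNF- members, and with 5.13 UMIs per TNF+ T cell.

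Of 19 immediate-early genes, known to be induced by tissue digestion, 5 were lower in the TNF+ members, none was higher and 14 did not pass the fold, where 14.5% of all genes were lower. Their summed level was 2024 against 2893 CPM. Egr1 was at 22.6 and Fos at 48.9 CPM in TNF+ against 175 and 162 CPM in TNF-. Of the hypoxia and glycolysis list 2 of 14 were higher (Eno1 and Higd1a). Cdkn1a, which encodes the cell cycle inhibitor p21, was the 1 higher gene among 3 measured of the cell cycle list, at 169 against 42.0 CPM in 4 of 20 and 13 of 127 cells.

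**Figure D4:**
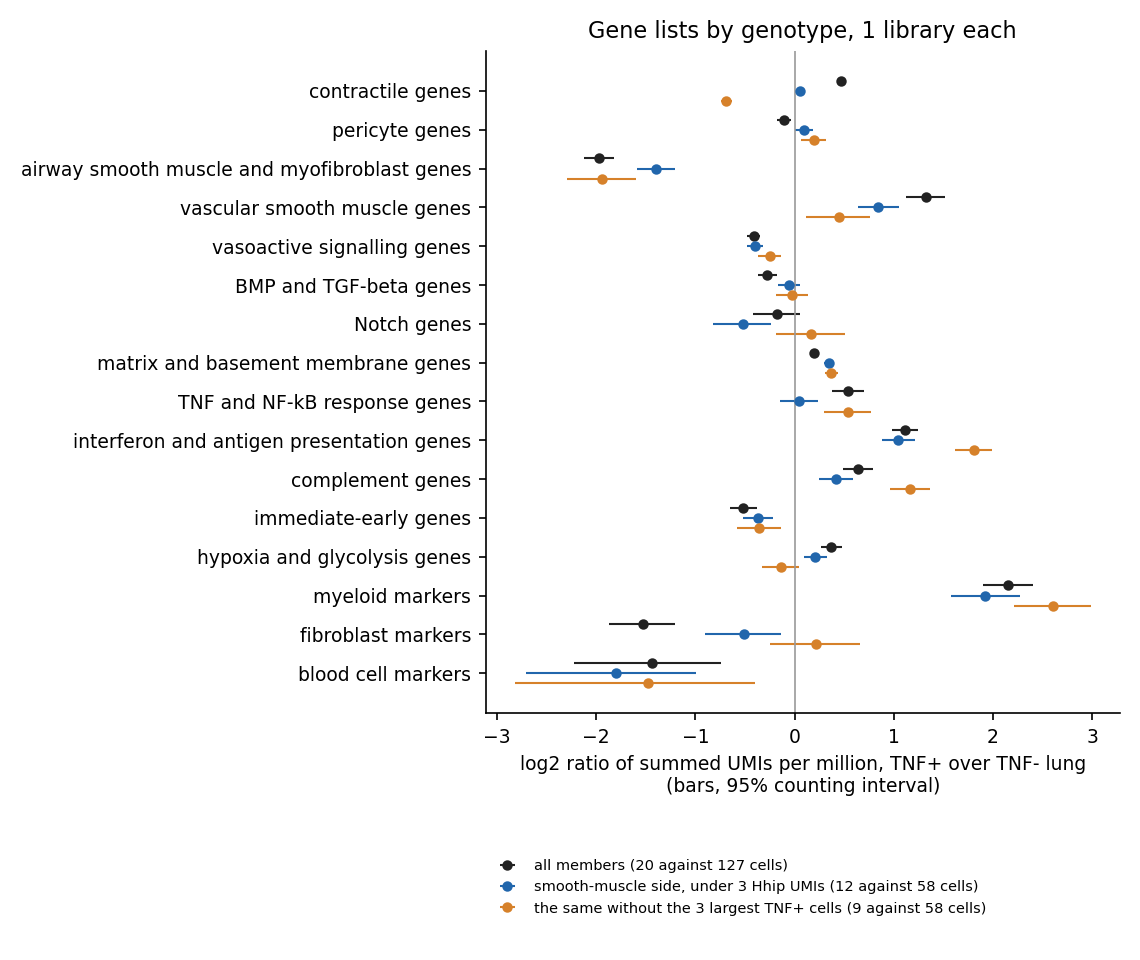
Log2 ratio of the summed level of each gene list, TNF+ over TNF- lung (x axis; bars, 95% counting intervals), over all members (black, 20 against 127 cells), in Hhip-low smooth muscle (blue, 12 against 58 cells) and in the same without the 3 largest TNF+ cells (orange, 9 against 58 cells). The contractile ratio is 0.47, 0.05 and -0.69 and the TNF response 0.54, 0.05 and 0.53 in these sets, while the interferon list is above 1 in each (1.12, 1.04 and 1.81).

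The same rule applied to the synovium gave 395 TNF- and 105 TNF+ cells. Of the TNF- cells 167 were tied, all of them with Notch3, so only the sides are compared. Within 1 UMI of the cut lay 195 TNF- and 6 TNF+ synovial cells, tied cells included. Pericyte-side cells numbered 97 in the TNF- and 10 in the TNF+ synovium. Between the 40 lung and 97 synovial pericyte-side cells of TNF- mice, 18.5% of 6344 genes were at least 2-fold higher and 14.5% lower in the lung, with a median of 0.23.

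A widely used pericyte marker was nearly missing from the lung pericytes. Rgs5, a brake on G-protein signalling (chr1:169655501-169695813), was at 43.7 CPM (21.0 to 80.4) in 3 of 40 lung pericytes and at 8571 CPM in 95 of 97 synovial pericytes, a log2 ratio of -7.62 (-8.68 to -6.74). Kcnj8 and Abcc9, the pore and the regulatory subunit of a potassium channel gated by ATP, were at 30.6 and 48.1 CPM in the lung and at 1155 and 2121 CPM in the synovium. Ednrb, the endothelin B receptor, was at 13.1 against 1071 CPM, and Steap4, a metalloreductase, had no UMI against 863. The 6 TNF+ lung pericyte-side cells held 1 Rgs5 UMI. The genes shared by both tissues were Pdgfrb, at 1499 and 1069 CPM, Ndufa4l2, at 1385 and 1214, and Cspg4, the proteoglycan NG2, at 310 and 289.

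Other genes were higher in the lung pericytes. Kcnk3 was at 704 against 11.6 CPM and Trpc6 at 2613 against 41.3 CPM. Tbx4, a transcription factor of lung mesenchyme, was at 529 against 1.65 CPM, and Angpt1, the ligand of the endothelial receptor Tie2, at 896 against 1.65 CPM. Adcy8 and Ltbp2 had 352 and 273 UMIs against 0, log2 ratios of at least 8.28 and 7.91. Kcnq5, a potassium channel, was at 9015 against 54.5 CPM. Of 17 pericyte genes 8 were higher in the lung and 4 lower, and of 26 matrix genes 13 were higher and 2 lower.

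All 19 immediate-early genes were lower in lung pericytes, with a median log2 ratio of -4.18 and a summed level of 1918 against 24682 CPM. Fos was at 39.3 against 3901 CPM and Junb at 101 against 3101. Of 15 genes of the TNF response 9 were lower and none higher. The tissues were digested with different enzymes, and the part of digestion in these values was not tested.

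Hhip-low smooth muscle was also set against that of the synovium. Over 8347 genes, 22.9% were at least 2-fold higher and 13.6% lower in the 58 lung than in the 127 synovial cells, with a median of 0.33. Actc1 was at 2588 against 0.949 CPM and Actg2, the enteric gamma-actin, at 1175 against 4.75 CPM. Acta2 was found in 56 of the 58 lung cells and in 105 of the 127 synovial cells. The contractile list was higher as a whole, 9 of 18 higher and 4 lower, at 44504 against 21317 CPM, whereas in pericytes it was at 4654 against 6605 CPM, with 3 of 16 higher and 8 lower in the lung. Casq2 and Pln, the calcium store protein calsequestrin and the pump regulator phospholamban, were lower at 1.71 against 201 and 10.3 against 235 CPM. Eln was at 3209 against 75.0 CPM, and 13 of 28 matrix genes were higher with 1 lower. Of 19 immediate-early genes 18 were lower.

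**Figure D5:**
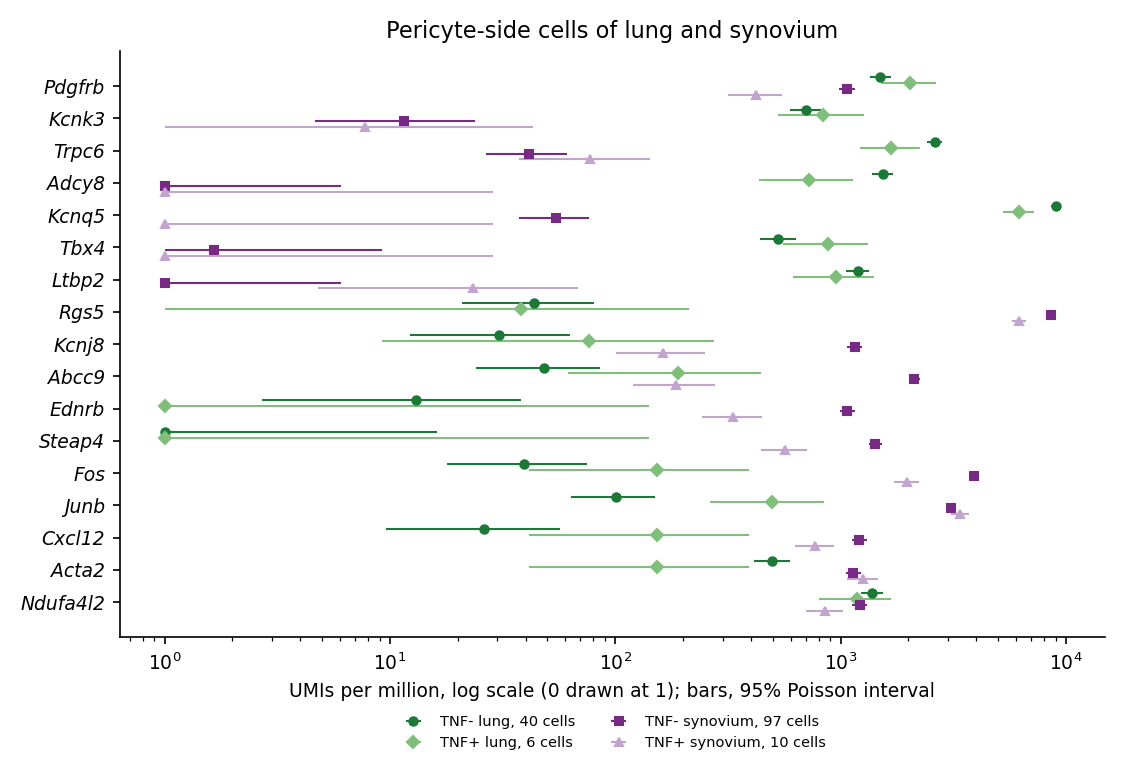
Levels of 17 genes in pericyte-side cells of the lung (TNF-, 40 cells; TNF+, 6 cells) and the synovium (TNF-, 97 cells; TNF+, 10 cells), in CPM on a log scale with 0 drawn at 1 and 95% Poisson intervals as bars. Rgs5 lies at 43.7 CPM in the TNF- lung and 8571 in the TNF- synovium, while Pdgfrb lies at 1499 and 1069.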

How the data were processed

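Single-cell suspensions of lung and synovium were sequenced as 4 droplet libraries, 1 per genotype and tissue. The authors deposited raw UMI counts per gene and barcode (32285 genes), made with Cell Ranger 7.0.1 against mouse build GRCm38 per the labels and methods; the barcode and gene tables beside them were used as names only. Intronic reads are counted by default in this version, which raises long genes. No deposited file names cell types.

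UMIs were summed over the cells of each kind and expressed as CPM (Python 3.11.15, numpy 2.4.6, scipy 1.17.1, pandas 2.3.3). Genes with at least 20 UMIs over both groups were compared. A gene was counted as higher or lower past 2-fold, a count of 0 was set against a floor of 3 UMIs over the group ("at least", "at most"), and no test was run. The contrast was tested on simulated data in which all cells of a group shared the same profile. Variation between cells was thus not part of that test, and the intervals do not cover it. Named genes were the rule genes and Acta2, list genes with the most UMIs, the 8 highest and lowest by kind (at least 50 UMIs) and the 10 highest and lowest by genotype with at least 3 times the UMIs of T cells. The pericyte, contractile and other lists (23, with 328 genes) and the members were chosen with earlier results of these data known. The Hhip limit, the limits of 30000 UMIs and 10 Trpc6 UMIs, the comparisons with it and between tissues, the wider promoter search and other single genes were chosen after values were seen.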

Additional observations from a re-analysis of the deposited data

How the results depend on the processing

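Of 99 recomputed values, 49 stayed within their interval or within 1.5 times the count, 43 moved further and 7 changed sign; the cause was not tested. The share of members stayed lower in TNF+ under every alternative run. It was 0.289% of TNF+ barcodes at 2 UMIs of the rule genes. Thinning to 500 UMIs gave 0.839% (TNF-) and 0.0902% (TNF+), and exclusion genes at up to 1 UMI gave 1.92% (TNF-). The smooth-muscle side was 47.2% of TNF- members after thinning.

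Of 8549 genes 389 (4.55%) were higher in TNF+, against 663 of 10453 (6.34%) at a minimum of 10 UMIs, 86 of 2805 (3.07%) at 100, 51 of 584 (8.73%) after thinning and 26 of 226 (11.5%) among members of 500 to 2000 UMIs. Lower were 1237 (14.5%), against 262 (9.34%) at a minimum of 100 UMIs, 90 (15.4%) after thinning, 39 (17.3%) among shallow members, 640 of 6229 (10.3%) in Hhip-low cells and 758 of 5586 (13.6%) in Hhip-low cells without the 3 largest. In the listed settings with smaller counts, fewer genes were also compared. Both shares fell at a minimum of 100 UMIs, and the share of lower genes also fell in Hhip-low cells. After thinning and among shallow members neither share fell.

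The log2 ratios of the lists over all members were 0.54 (TNF response), -1.97 (airway), 0.47 (contractile), 1.12 (interferon) and -0.11 (pericyte). At 2 UMIs of the rule genes they were 0.72 (TNF response), -2.36 (airway), 0.36 (contractile) and 1.51 (interferon). Thinning gave 1.19 (TNF response), -2.35 (airway), 0.010 (contractile), 1.45 (interferon) and -0.34 (pericyte). Equal weight per cell gave 1.09 (TNF response), 0.047 (contractile), 1.63 (interferon) and -0.28 (pericyte). Members of 500 to 2000 UMIs gave 1.42 (TNF response), -1.76 (airway), -0.38 (contractile), 1.75 (interferon) and -0.31 (pericyte). Subtracting the T-cell level gave 0.018 (TNF response), -2.19 (airway), 0.25 (contractile), 3.25 (interferon) and -0.33 (pericyte), but T cells express interferon and NF-kB genes themselves, so for those lists these values say nothing about background. Centring on the median gene gave 0.58 (contractile) and 0.0079 (pericyte). Of the alternatives chosen after seeing the data, Hhip-low cells gave 0.048 (TNF response), -1.39 (airway), 0.052 (contractile) and 0.10 (pericyte), and leaving out the 3 TNF+ cells over 30000 UMIs gave 0.99 (TNF response), -0.28 (contractile), 1.75 (interferon) and 0.25 (pericyte). Hhip-low cells without those 3 gave -0.69 (contractile), 1.81 (interferon) and 0.19 (pericyte). The contractile and pericyte directions thus depend on the setting, while the sums of the airway and interferon lists kept theirs under all that were run. In Hhip-low cells the airway sum moved mostly through Actc1, and the median over its 5 measured genes was -0.13. The TNF response list came close to 0 in Hhip-low cells with the 3 largest TNF+ cells and was at 0.53 without them.

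No paired analysis was possible because each genotype and tissue is 1 library with no replicate number. The 20 TNF+ members limit every comparison between the genotypes: most TNF+ values rest on a few cells, and differences between mice and between library preparations were not measured.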
